A study of Arabidopsis thaliana with 12 samples.

Results

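The trehalose-phosphate synthase (TPS) genes of Arabidopsis thaliana described here were TPS1, TPS5, TPS6, TPS7, TPS8, TPS9, TPS10 and TPS11, chosen by gene name, with earlier results of these data known. All 8 were among the 25729 genes of the table, and all 8 passed the filter on low values that 19274 genes passed. Transcripts of whole seedlings aged 10 days were measured by RNA sequencing in 4 groups of 3 libraries: tic-2 at postdusk, Col-0 at postdusk, tic-2 at predawn and Col-0 at predawn. Every group was in the Col-0 ecotype, was grown at 22 °C under the regime labelled LD and had 3% sucrose added to its MS medium. Postdusk was ZT 12 and predawn ZT 0, where ZT is the number of hours since lights-on. The tic-2 plants were homozygous for an allele of TIME FOR COFFEE (TIC), a gene of the circadian clock whose product is also linked to metabolism, and Col-0 is the wild type. The labels do not say what kind of lesion tic-2 is or how many seedlings went into a library, so the p-values cover the spread between libraries that the series calls biological replicates. Levels are FPKM, fragments scaled by gene length and by library size. The length that matched the values was that of all annotated exons of a gene together. It was 5341 bases for TPS1, with 2829 coding bases, and 2973 bases for TPS9, with 2604 coding bases. Comparisons of levels between genes depend on that length.

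TPS enzymes join UDP-glucose and glucose 6-phosphate into trehalose 6-phosphate, a sugar phosphate that follows the sucrose supply of plant tissue and restrains the kinase SnRK1, which reports carbon shortage. Trehalose-phosphate phosphatases (TPPs) remove the phosphate, and trehalase splits the trehalose that results. TPS1 is the class I enzyme that makes most of the trehalose 6-phosphate of the plant and is needed for embryo growth and flowering. TPS5 to TPS11 are class II proteins, which carry a TPS-like and a TPP-like domain and for which little or no enzyme activity has been shown. Their transcripts are known as readouts of sugar status, with TPS5 raised by sugar and TPS8 to TPS11 raised when carbon runs short.

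The gene models separate the classes. In the TAIR10.1 annotation TPS1 (AT1G78580, chromosome 1, 29552340 to 29560912, minus strand) had 17 coding exons, whereas each of the 7 class II genes had 3. The class II genes were TPS5 (AT4G17770, chromosome 4, 9876172 to 9880386, plus strand), TPS6 (AT1G68020, chromosome 1, 25496928 to 25500584, plus strand), TPS7 (AT1G06410, chromosome 1, 1954674 to 1958866, plus strand), TPS8 (AT1G70290, chromosome 1, 26470795 to 26474833, minus strand), TPS9 (AT1G23870, chromosome 1, 8432179 to 8435656, plus strand), TPS10 (AT1G60140, chromosome 1, 22176934 to 22181740, minus strand) and TPS11 (AT2G18700, chromosome 2, 8108898 to 8112010, plus strand). The coding sequence of TPS1 shared 59.9% to 61.9% of aligned bases with the class II genes, which shared 64.6% to 81.1% with each other. TPS8 and TPS9 were the closest pair. No stretch of 50 bases in the exons of any member occurred a second time in the nuclear chromosomes, so reads that long and without mismatches belong to a single member. The recovered reads per library ran from 406 (TPS11) to 5633 (TPS8).

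Promoter windows of 300 bases, 250 before and 50 after the annotated start, are shown for TPS11, the member with the largest genotype difference, and for TPS5, the member that rose at postdusk in both genotypes. The sequences are from the RefSeq copy of TAIR10.1, at chr2:8108648-8108947 (plus strand) and chr4:9875922-9876221 (plus strand). Capitals mark matches, on either strand, to the G-box CACGTG, the evening element AAAATATCT, the CCA1-binding site AAAAATCT or the sugar-repressible element TTATCC, none of which holds another.
TPS11: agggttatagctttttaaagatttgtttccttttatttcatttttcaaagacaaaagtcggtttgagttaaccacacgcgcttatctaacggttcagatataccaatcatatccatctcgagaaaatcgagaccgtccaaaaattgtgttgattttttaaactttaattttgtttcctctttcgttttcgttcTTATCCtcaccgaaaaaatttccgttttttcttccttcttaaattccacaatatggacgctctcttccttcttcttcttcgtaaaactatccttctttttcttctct
TPS5: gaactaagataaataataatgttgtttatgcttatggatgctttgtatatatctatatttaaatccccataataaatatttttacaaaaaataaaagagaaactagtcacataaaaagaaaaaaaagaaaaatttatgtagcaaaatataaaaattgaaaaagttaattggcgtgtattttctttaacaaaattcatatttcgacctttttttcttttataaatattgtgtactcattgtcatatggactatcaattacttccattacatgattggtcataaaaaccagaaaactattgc
In windows of this length the G-box occurred in 8.08% of 25452 genes, the evening element in 2.83% and the CCA1-binding site in 7.64%, and each in 0 of the 7 member windows searched. The sugar-repressible element occurred in 14.99% of genes and in 1 of the 7 windows, that of TPS11. In longer windows, from 1000 bases before to 50 after the start, the sugar-repressible element occurred in TPS7, TPS8, TPS9 and TPS11 (40.3% of genes), the G-box in TPS7 and TPS11 (16.4%), the CCA1-binding site in TPS9 and TPS10 (21.5%) and the evening element in 0 of the 7 (7.49%). These are letter matches only.

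TPS8 was the highest member by mean FPKM in all 4 groups, and TPS1 was among the lowest pair at predawn and the lowest at postdusk. In Col-0 at predawn the order of mean levels was TPS8 (40.6 ± 3.52 FPKM, SD, n = 3), TPS7 (37.6 ± 2.06), TPS9 (33.3 ± 0.966), TPS10 (22.9 ± 1.52), TPS11 (21.0 ± 2.92), TPS6 (18.9 ± 1.41), TPS1 (9.36 ± 0.235) and TPS5 (8.39 ± 0.755). The ranges of TPS8 and TPS7 overlapped there, and so did those of TPS10 and TPS11 and of TPS11 and TPS6. In tic-2 at predawn TPS11 stood second, at 61.1 ± 9.94 FPKM, behind TPS8 at 77.2 ± 6.83, and the ranges of TPS11, TPS9, TPS7 and TPS10 each overlapped that of the next. The summed level of the 7 class II transcripts was 178 ± 45.7 FPKM in tic-2 and 147 ± 18.1 FPKM in Col-0 at postdusk, against 299 ± 18.3 FPKM in tic-2 and 183 ± 6.19 FPKM in Col-0 at predawn. TPS1 made up 6.42% of the summed FPKM of all 8 members in tic-2 and 5.88% in Col-0 at postdusk, against 3.52% in tic-2 and 4.88% in Col-0 at predawn. The library totals behind these values were 19255017 to 21750338 reads.

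**Figure D1:**
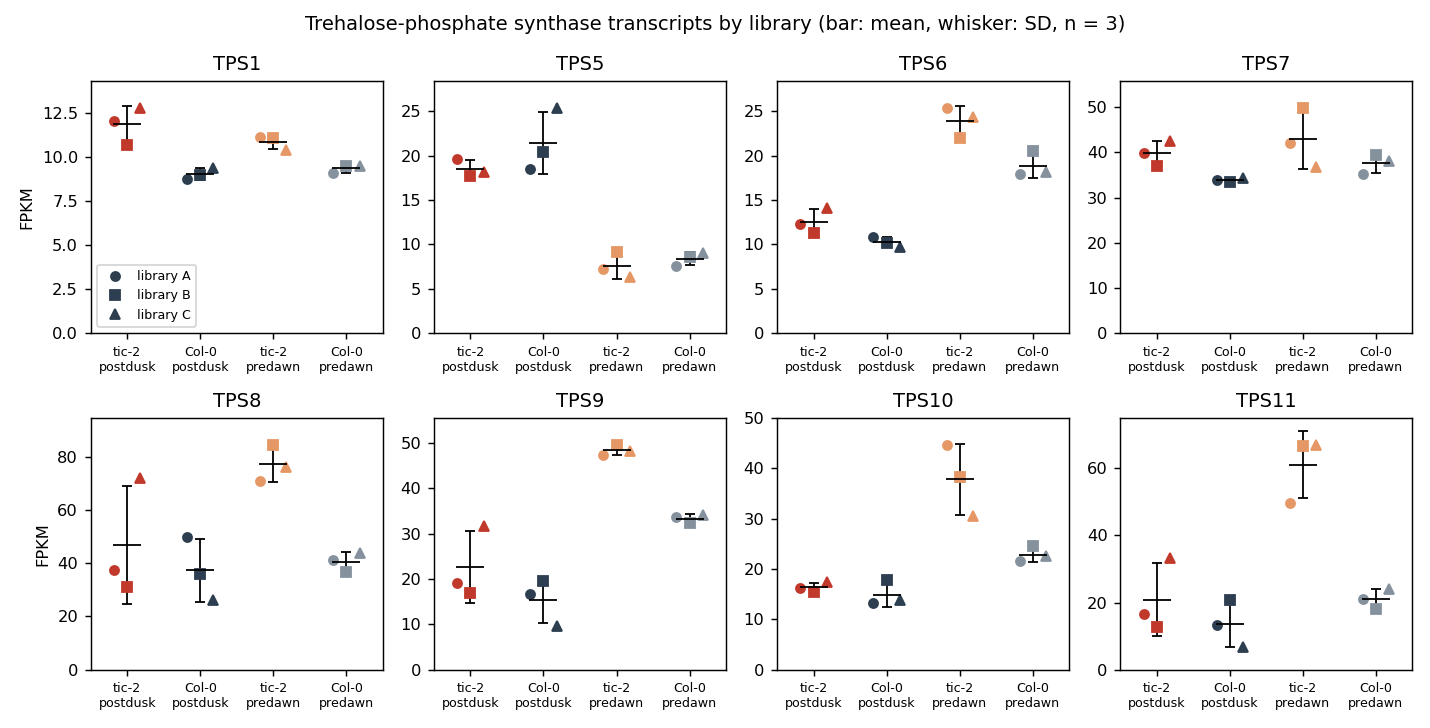
FPKM of each of the 8 TPS transcripts in the 12 libraries, with circles, squares and triangles for the libraries lettered A, B and C, a bar at the group mean and whiskers for the SD (n = 3). TPS11 in tic-2 at predawn lay between 49.6 and 67.0 FPKM, above its other 3 groups, and TPS5 was higher in the postdusk groups than in the predawn groups.

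At predawn the comparison of tic-2 with Col-0 asked which transcripts differ at the end of the night. Transcripts of 4 class II genes, TPS6, TPS8, TPS10 and TPS11, rose in tic-2, and 0 members fell. A gene counts as called at a Benjamini-Hochberg adjusted p under 0.05 in limma, adjusted over all genes tested. In this contrast 27.7% of genes were called and 13.1% were called higher, beside 4 of the 8 members called higher, and 14.6% were called lower, beside 0. The median log2 fold change was 0.43 over the members and -0.03 over all genes tested. The libraries of both genotypes did not overlap for 6 of the 8 members, all 6 higher in tic-2, where 44.7% of all genes did not overlap and 20.2% did so with tic-2 higher.

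TPS11 had the largest difference. Its values were 49.6, 66.7 and 67.0 FPKM in tic-2 at predawn, against 21.1, 18.1 and 23.9 FPKM in Col-0. Every tic-2 library was above every Col-0 library, and the fold of group means was 2.90 (log2 fold change 1.49, SE 0.36, limma adjusted p = 0.00884). TPS8, at 70.9, 84.4 and 76.2 FPKM in tic-2 and 41.1, 36.8 and 43.8 FPKM in Col-0, was 1.90-fold higher (log2 fold change 0.91, SE 0.27, limma adjusted p = 0.0275). The groups did not overlap, but the call of TPS8 ended without Col-0 predawn library A (adjusted p = 0.0658), B (0.0897) or C (0.0561) or without tic-2 predawn library B (0.0861) or C (0.0620).

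TPS10, whose coding sequence was closest to those of TPS8 (72.4% of aligned bases) and TPS9 (72.2%), was at 44.7, 38.3 and 30.6 FPKM in tic-2 at predawn and at 21.5, 24.5 and 22.6 FPKM in Col-0. All 3 tic-2 libraries were higher, the fold of means was 1.65 (log2 fold change 0.69, SE 0.14), and the limma adjusted p was 0.00299. TPS6, which is linked to cell shape in the epidermis, was at 25.4, 22.0 and 24.3 FPKM in tic-2 and 17.97, 20.5 and 18.2 FPKM in Col-0. It rose by the smallest amount of the 4, 1.27-fold (log2 fold change 0.32, SE 0.10, limma adjusted p = 0.0288), without overlap between groups. Its call ended without Col-0 predawn library A (adjusted p = 0.0947) or C (0.0983) or without tic-2 predawn library A (0.0787) or C (0.0621).

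The other members were not called at predawn. TPS9 had 47.4, 49.6 and 48.3 FPKM in tic-2 and 33.6, 32.3 and 34.1 FPKM in Col-0. The groups stood well apart within this time point, 1.45-fold by group means, yet TPS9 was not called (log2 fold change 0.53, SE 0.23, limma adjusted p = 0.120). The SD of the same gene at postdusk was 7.93 FPKM in tic-2 and 5.03 FPKM in Col-0, and all 4 groups share 1 spread in the fit. In a fit of the predawn groups alone TPS9 was called (adjusted p = 0.00257), as it was with array weights (0.0130). It was also called without both postdusk libraries lettered C (0.00120), an alternative chosen after the data were seen. Array weights called 9532 of the 19274 genes tested at predawn, where the fit reported called 5334. TPS1, the class I enzyme, was at 11.1, 11.1 and 10.4 FPKM in tic-2 and 9.09, 9.51 and 9.48 FPKM in Col-0, without overlap, and its log2 fold change of 0.20 was not called (SE 0.08, limma adjusted p = 0.102). It was called with array weights (0.00839) and without both tic-2 libraries lettered C (0.0491). TPS7 was at 42.1, 49.8 and 36.7 FPKM in tic-2 and 35.3, 39.3 and 38.2 FPKM in Col-0, and the groups overlapped (log2 fold change 0.18, limma adjusted p = 0.246). TPS7 was called with array weights (adjusted p = 0.00178) and without both tic-2 libraries lettered C (0.0306). TPS5 was the member with a negative difference, at 7.20, 9.13 and 6.32 FPKM in tic-2 and 7.55, 8.63 and 9.001 FPKM in Col-0, with overlapping groups (log2 fold change -0.15, limma adjusted p = 0.467).

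At postdusk, ZT 12, the same genotypes were compared again. TPS1 rose in tic-2, and no other member was called, where 29.5% of all genes were called, 9.71% higher and 19.8% lower. TPS1 was at 12.1, 10.7 and 12.8 FPKM in tic-2 and at 8.76, 9.002 and 9.39 FPKM in Col-0. Every tic-2 library was above every Col-0 library, 1.31-fold by group means (log2 fold change 0.35, SE 0.08, limma adjusted p = 0.00913). The libraries of TPS6 and TPS7 did not overlap either, as for 46.8% of all genes, 14.3% with tic-2 higher and 32.5% with tic-2 lower. TPS6 was at 12.2, 11.3 and 14.1 FPKM in tic-2 and 10.9, 10.2 and 9.72 FPKM in Col-0 (log2 fold change 0.26, SE 0.10, limma adjusted p = 0.0629), and it was called without tic-2 postdusk library B (adjusted p = 0.0386) and with array weights (0.0128). TPS7 was at 39.8, 37.1 and 42.5 FPKM in tic-2 and 33.9, 33.5 and 34.2 FPKM in Col-0 (log2 fold change 0.22, SE 0.11, limma adjusted p = 0.126), and it was called with array weights (adjusted p = 0.0185). Array weights called 10443 of the 19274 genes tested at postdusk.

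The scaling bears on this contrast. Dividing each library by its median-of-ratios size factor gave a median log2 fold change over all genes of -0.01, where the deposited scale gave -0.12. Higher calls made up 57.1% of all calls after that division and 32.9% before it. On that scale TPS6 (log2 fold change 0.38, adjusted p = 0.0245) and TPS7 (0.35, adjusted p = 0.0340) were called higher beside TPS1. The median log2 fold change of the 8 members as deposited was 0.27.

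TPS8, TPS9 and TPS11 varied widely between the postdusk libraries, and their genotypes overlapped. TPS8 had 37.4, 31.0 and 72.1 FPKM in tic-2 and 49.8, 35.9 and 26.0 FPKM in Col-0. TPS9 had 19.2, 16.9 and 31.7 FPKM in tic-2 and 16.6, 19.5 and 9.75 FPKM in Col-0. TPS11 had 16.5, 12.8 and 33.2 FPKM in tic-2 and 13.2, 20.9 and 6.87 FPKM in Col-0. For all 3 genes the highest tic-2 value was in library C and the lowest Col-0 value was in library C of that genotype. None was called (limma log2 fold changes 0.28, 0.53 and 0.59 for TPS8, TPS9 and TPS11, adjusted p = 0.471, 0.105 and 0.235), although TPS9 was with array weights (adjusted p = 0.0353). Leaving out both of those libraries was chosen after the data were seen. It gave a log2 fold change of -0.30 for TPS8 and -0.18 for TPS11, both of the opposite sign, and 0.000198 for TPS9, which was not called. Without tic-2 postdusk library C alone the log2 fold change was -0.08 for TPS8. TPS10 was at 16.2, 15.5 and 17.4 FPKM in tic-2 and 13.2, 17.8 and 13.8 FPKM in Col-0 (limma adjusted p = 0.487). TPS5 was at 19.6, 17.7 and 18.2 FPKM in tic-2 and 18.5, 20.5 and 25.4 FPKM in Col-0 (log2 fold change -0.19, limma adjusted p = 0.304).

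**Figure D2:**
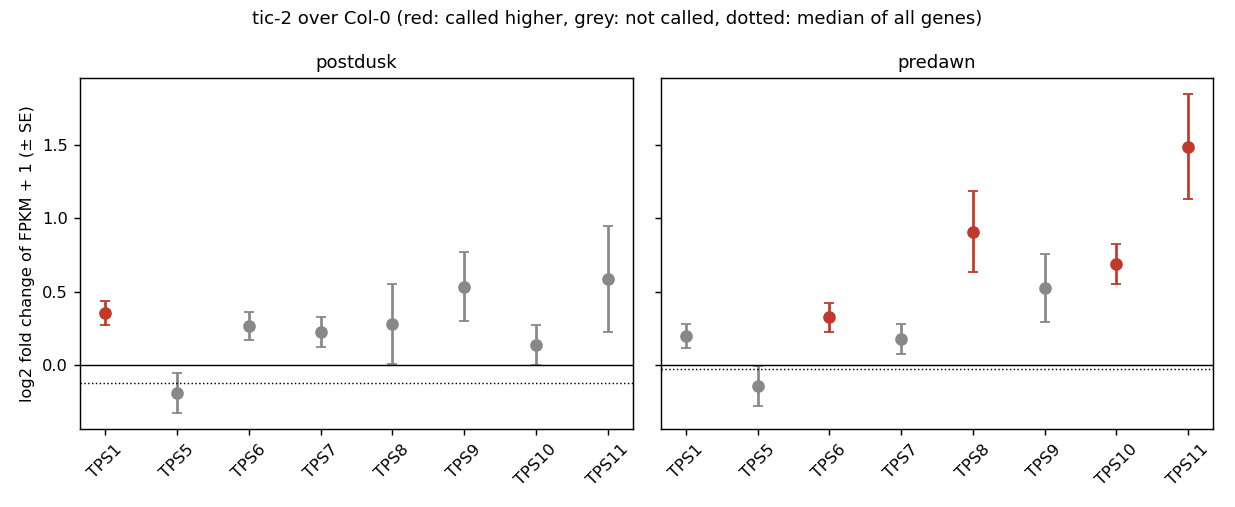
Log2 fold change (FPKM + 1, tic-2 over Col-0, ± SE of the limma fit) of the 8 TPS transcripts at postdusk (left) and predawn (right), with the median of all genes as a dotted line. TPS6, TPS8, TPS10 and TPS11 were called higher at predawn and TPS1 at postdusk, and the SE of TPS8, TPS9 and TPS11 was wider than that of TPS1, TPS6 and TPS7.

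The same 3 transcripts spread together within groups, most widely at postdusk. On the log2(FPKM + 1) scale, TPS9 deviated from its group means by -0.05 to 0.03 in the predawn libraries. At postdusk it deviated by -0.55 to 0.52. The pooled SD within groups, on the log2(FPKM + 1) scale, was 0.53 for TPS11, 0.40 for TPS8 and 0.34 for TPS9, above 97.5%, 93.8% and 90.03% of the genes tested, and it was 0.07 for TPS1, above 3.08% of them. The median over all genes tested was 0.16. Across the 12 libraries the deviations from the group means correlated at Pearson r = 0.96 for TPS9 and TPS11, 0.86 for TPS8 and TPS9 and 0.80 for TPS8 and TPS11, as a description of libraries that share depth and scaling. TPS10 deviated with them less closely (r = 0.04 with TPS8, 0.36 with TPS9 and 0.27 with TPS11).

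Transcripts that SnRK1 induces moved with the same libraries at postdusk. Library C was the highest of the tic-2 libraries for 7 of 8 TPS members and for 7 of 7 SnRK1-induced transcripts, against 36.0% of all genes tested. Library C was the lowest of the Col-0 libraries for 4 of 8 members and for 7 of 7 SnRK1-induced transcripts, against 32.3% of all genes. These libraries were singled out after the values of TPS8, TPS9 and TPS11 were seen, and those genes are among the members counted. So the counts of members are not separate support. DIN1, a senescence and dark-inducible gene, was at 25.9, 19.1 and 47.6 FPKM in tic-2 and 34.9, 32.4 and 13.6 FPKM in Col-0. The part of these libraries' SnRK1-induced transcripts in the TPS values was not tested.

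**Figure D3:**
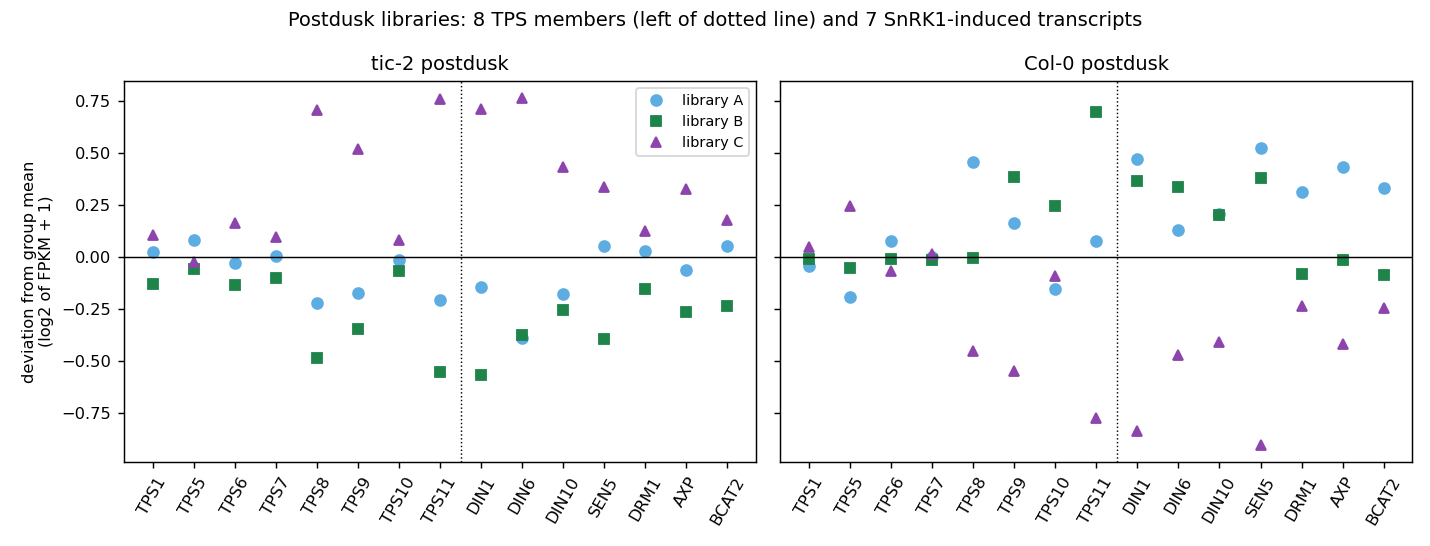
Deviation of each postdusk library from its group mean (log2 of FPKM + 1) for the 8 TPS members and 7 SnRK1-induced transcripts, tic-2 on the left and Col-0 on the right. Library C stood above the group mean in tic-2 and below it in Col-0 for TPS8, TPS9, TPS11 and all 7 SnRK1-induced transcripts.

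The difference between the genotype effects at postdusk and predawn, the interaction, was tested directly. It was called for 0 of 8 members by limma, where 15.9% of all genes were called, 7.28% with a more positive effect at postdusk and 8.59% with a more negative one, and at an unadjusted p under 0.05 for 1, TPS10. The log2 interaction was -0.55 for TPS10 (SE 0.20, adjusted p = 0.0809), -0.90 for TPS11 (SE 0.51, adjusted p = 0.272) and -0.63 for TPS8 (SE 0.39, adjusted p = 0.314). So the predawn rise of these transcripts in tic-2 is not shown to differ from their postdusk difference in the full set of libraries. An alternative without both postdusk libraries lettered C was chosen after the data were seen. It drops the libraries in which TPS8, TPS9 and TPS11 were highest in tic-2 and lowest in Col-0, so its calls are not separate support. In it limma called the interaction for 3 members, TPS8 (-1.21, adjusted p = 0.00361), TPS9 (-0.53, adjusted p = 0.0246) and TPS11 (-1.67, adjusted p = 0.00397). Array weights gave 3 as well, TPS8 (-0.94), TPS10 (-0.56) and TPS11 (-1.10), where 7954 of the 19274 genes tested were called. The TPS8 interaction was also called without tic-2 postdusk library C alone (-0.99, adjusted p = 0.0332), and that of TPS10 without tic-2 predawn library C (-0.70, adjusted p = 0.0165). The interaction of TPS1 was 0.16 (adjusted p = 0.420).

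Harvest time was compared within each genotype. TPS5 rose at postdusk, and TPS6, TPS9 and TPS10 fell at postdusk, in both tic-2 and Col-0. TPS8 and TPS11 fell in tic-2 and were not called in Col-0, and TPS1 and TPS7 were called in neither. In tic-2, 1 member was called higher and 5 lower at postdusk, beside 18.5% and 19.4% of all genes. In Col-0, 1 was called higher and 3 lower, beside 22.7% and 14.4% of all genes. The libraries of both times did not overlap for 5 members in tic-2, where 44.3% of all genes did not (21.0% higher and 23.2% lower at postdusk), and for 5 in Col-0, where 57.6% did not (34.9% higher and 22.7% lower). The median log2 change of the members was -0.84 in tic-2 and -0.38 in Col-0, against -0.05 and 0.05 over all genes tested.

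TPS5 averaged 18.5 ± 1.02 FPKM at postdusk and 7.55 ± 1.44 FPKM at predawn in tic-2, 2.45-fold higher (log2 change 1.20, SE 0.14, limma adjusted p = 3.24e-05). In Col-0 it averaged 21.5 ± 3.55 FPKM at postdusk and 8.39 ± 0.755 FPKM at predawn, 2.56-fold higher (log2 change 1.25, SE 0.14, limma adjusted p = 2.34e-05). In neither genotype did the times overlap.

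TPS6 averaged 12.6 ± 1.44 FPKM at postdusk and 23.9 ± 1.71 at predawn in tic-2, and 10.2 ± 0.570 and 18.9 ± 1.41 FPKM in Col-0 (log2 changes -0.88 and -0.82). TPS9 averaged 22.6 ± 7.93 FPKM at postdusk and 48.4 ± 1.15 at predawn in tic-2, and 15.3 ± 5.03 and 33.3 ± 0.966 FPKM in Col-0 (log2 changes -1.12 and -1.13). The log2 changes of both genes stood close together in the 2 genotypes, with interactions of -0.06 (SE 0.14) for TPS6 and 0.01 (SE 0.33) for TPS9. TPS10 averaged 16.4 ± 0.917 FPKM at postdusk and 37.9 ± 7.09 at predawn in tic-2, and 14.9 ± 2.48 and 22.9 ± 1.52 FPKM in Col-0 (log2 changes -1.15 and -0.59). The limma adjusted p of these 3 genes was 0.00528 or below in both genotypes.

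TPS11 fell at postdusk in tic-2, to 20.8 ± 10.9 FPKM against 61.1 ± 9.94 at predawn (log2 change -1.61, SE 0.36, limma adjusted p = 0.00411). In Col-0 it was at 13.6 ± 7.001 FPKM at postdusk and 21.0 ± 2.92 at predawn, with overlap, and was not called (log2 change -0.70, limma adjusted p = 0.148), except with array weights (adjusted p = 0.0262) and without Col-0 postdusk library B (0.0362). TPS8 fell at postdusk in tic-2, to 46.8 ± 22.1 FPKM against 77.2 ± 6.83 at predawn (log2 change -0.80, SE 0.27, limma adjusted p = 0.0375), but library C at postdusk overlapped the predawn range. Among other settings, that call ended without tic-2 postdusk library A (adjusted p = 0.117) or B (0.139), tic-2 predawn library A (0.0541), B (0.106) or C (0.0719), or Col-0 predawn library A (0.0518), with no filter on low values (0.0589) and in a fit of the 2 groups alone (0.0685). In Col-0 TPS8 was at 37.2 ± 11.9 FPKM at postdusk and 40.6 ± 3.52 at predawn (log2 change -0.16, limma adjusted p = 0.677). TPS1 and TPS7 were called in neither genotype. Their log2 changes were 0.11 and -0.10 in tic-2 and -0.04 and -0.14 in Col-0, and array weights gave a call for TPS7 in tic-2 (-0.27, adjusted p = 0.00182). With those weights 12164 of the 19274 genes tested were called over time in tic-2.

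**Figure D4:**
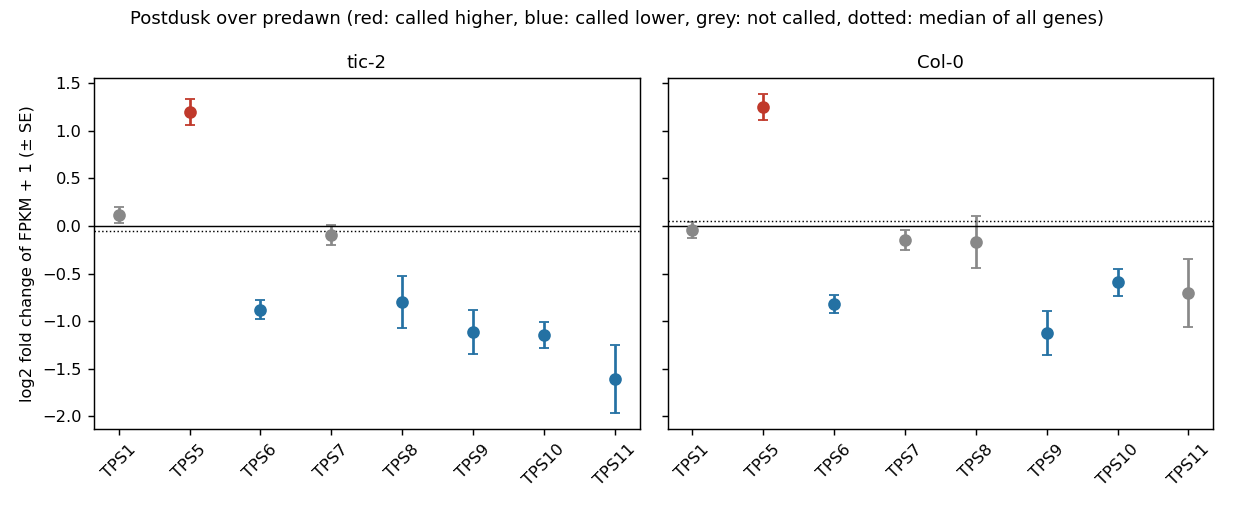
Log2 change at postdusk over predawn (FPKM + 1, ± SE of the limma fit) of the 8 TPS transcripts in tic-2 (left) and Col-0 (right), with the median of all genes as a dotted line. TPS5 was called higher at postdusk in both genotypes, and TPS6, TPS9 and TPS10 were called lower in both.

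Across the 12 libraries TPS5 ran opposite to most class II members, with Pearson r of log2(FPKM + 1) of -0.95 with TPS6, -0.88 with TPS9, -0.83 with TPS10 and -0.71 with TPS11. These r and those below describe 12 libraries that share groups and scaling, and they carry no test. TPS6, TPS9 and TPS10 ran together (r = 0.94, 0.92 and 0.88 for the 3 pairs), and TPS9 and TPS11 had r = 0.92.

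Of all genes tested, the nearest in pattern to TPS5 was UGP1 (r = 0.99), which encodes a UDP-glucose pyrophosphorylase and so an enzyme that supplies a substrate of TPS proteins. UGP1 averaged 103 ± 3.36 FPKM in tic-2 and 112 ± 15.98 FPKM in Col-0 at postdusk, against 59.2 ± 6.58 and 58.5 ± 4.48 FPKM at predawn. The beta-amylase family gene BAM2 followed (r = 0.98). The nearest genes to TPS6 were NADP-ME4, a malic enzyme of the plastid, and AT5G16030 (r = 0.99 each). Nearest to TPS11 were NLP7, a transcription factor of nitrate signalling (r = 0.96), and AT1G80180 (r = 0.96). NLP7 averaged 34.3 ± 1.73 FPKM in tic-2 and 23.8 ± 1.23 FPKM in Col-0 at predawn. TPS8 was nearest to LNG2 (r = 0.97), a regulator of cell elongation, and ITN1 (r = 0.94). TPS9 was nearest to AT1G04280 and UBP3 (r = 0.97 each), TPS10 to CuAO1, a copper amine oxidase (r = 0.98), and AT5G58720 (r = 0.97), TPS1 to scpl25 and AT4G25020 (r = 0.96 each), and TPS7 to KCO5, a potassium channel (r = 0.92), and AT1G51440 (r = 0.91).

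Genes around the members were described from lists. Beside the counts that follow, 13.1% of all genes tested were called higher in tic-2 and 14.6% lower at predawn, and 9.71% higher and 19.8% lower at postdusk. Of the other class I genes, TPS2 had 0 reads in 11 of 12 libraries and 2 in the other, and TPS4 had 0 to 3, at or below the 3 reads that a count of 0 allows (0.0511 to 0.0577 FPKM for TPS2 and 0.0568 to 0.0642 FPKM for TPS4). TPS3 was not analysed here. Of the class I genes measured, TPS1 alone was above that floor. Of 11 genes for TPPs and trehalase, 10 were tested. At predawn 1 rose, the trehalase gene TRE1, and 3 fell, TPPE, TPPH and TPPI. TRE1 was at 4.26, 6.86 and 6.51 FPKM in tic-2 and 2.84, 3.37 and 3.32 FPKM in Col-0 (log2 fold change 0.70, limma adjusted p = 0.00498). TPPH was at 4.14, 3.01 and 2.36 FPKM in tic-2 and 7.10, 6.37 and 7.70 FPKM in Col-0 at predawn (log2 fold change -0.97, limma adjusted p = 0.00107). It was lower at postdusk too, at 2.87, 2.74 and 1.95 FPKM in tic-2 against 8.50, 7.74 and 6.26 FPKM in Col-0 (log2 fold change -1.27, limma adjusted p = 0.000369). The lower level of TPPE at predawn (log2 fold change -0.31, limma adjusted p = 0.0235) was called under 15 of 22 alternatives. TPPI averaged 3.18 ± 0.230 FPKM in tic-2 and 5.54 ± 1.23 FPKM in Col-0 at predawn. At postdusk TPPE fell as well, to 13.6 ± 0.550 FPKM in tic-2 against 18.9 ± 1.26 FPKM in Col-0. TPPG was called higher at postdusk (limma adjusted p = 0.0449), with overlapping groups, and lost that call under 15 of 22 alternatives (highest adjusted p = 0.274). The median log2 fold change of the TPP and trehalase list was -0.38 at predawn, opposite in sign to that of the TPS members, and 0.06 at postdusk.

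Of 10 SnRK1 subunit and upstream kinase genes, 9 were tested. At predawn 2 of the 9, both for regulatory subunits, rose (13.1% of all genes did) and 0 fell. AKINGAMMA1 was at 80.35, 97.1 and 88.0 FPKM in tic-2 and 50.1, 43.9 and 46.4 FPKM in Col-0 (log2 fold change 0.90, limma adjusted p = 4.22e-05). AKINBETA1 was at 64.6, 85.2 and 105 FPKM in tic-2 and 51.0, 39.7 and 46.1 FPKM in Col-0 (log2 fold change 0.87, limma adjusted p = 0.0168), and was no longer called when Col-0 predawn library B (0.0689) or tic-2 predawn library B (0.0506) or C (0.0672) was left out. The catalytic subunit gene KIN10 was at 28.8 ± 2.41 FPKM in tic-2 and 24.6 ± 1.11 FPKM in Col-0 at predawn. Its groups did not overlap there, with tic-2 higher, but it was not called (log2 fold change 0.21, limma adjusted p = 0.185). At postdusk 1 gene, the catalytic subunit gene KIN11, fell to 13.1 ± 1.60 FPKM in tic-2 against 18.9 ± 0.566 FPKM in Col-0.

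Of the 7 SnRK1-induced transcripts, 7 rose in tic-2 at predawn, as 13.1% of all genes did, with a median log2 fold change of 2.37. The groups overlapped for 1 of them, DIN10, whose call was kept under 17 of 22 alternatives (highest adjusted p = 0.0907). This list was drawn up with earlier results of these data known, so its direction is not independent evidence. BCAT2, for branched-chain amino acid breakdown, was at 8.94, 15.1 and 22.0 FPKM in tic-2 and 1.42, 2.55 and 2.07 FPKM in Col-0 (log2 fold change 2.37, limma adjusted p = 5.42e-05). DRM1, a dormancy-associated gene, averaged 236 ± 55.1 FPKM in tic-2 and 53.5 ± 4.55 FPKM in Col-0. At postdusk 3 of the 7 fell and 0 rose. SEN5 averaged 75.7 ± 18.9 FPKM in tic-2 and 232 ± 104 FPKM in Col-0 at postdusk, and its call ended without Col-0 postdusk library A (adjusted p = 0.0593) or B (0.0540). These transcripts also changed with harvest time. In Col-0, AXP, DRM1 and DIN10 were called higher at postdusk than at predawn and DIN6 lower, beside 22.7% and 14.4% of all genes. In tic-2, 0 of the 7 were called higher and 6 lower, beside 18.5% and 19.4%. The part of time of day in their genotype differences was not tested.

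Of the 9 bZIP genes of groups C and S1, transcription factors that act with SnRK1, 3 rose at predawn (13.1% of all genes did) and 5 at postdusk (9.71%), and 0 fell. Several of these calls were lost under alternatives. At predawn BZIP2 was not called without Col-0 predawn library B (adjusted p = 0.0933) or tic-2 predawn library C (0.0701). At postdusk BZIP10 was called under 11 of 22 alternatives, BZIP44, whose groups overlapped, under 13, and BZIP63 under 16. The log2 fold change of BZIP63 was 0.69, and 0.39 without both postdusk libraries lettered C (adjusted p = 0.216). BZIP11, a regulator of trehalose and amino acid metabolism, averaged 29.1 ± 8.73 FPKM in tic-2 and 13.5 ± 0.647 FPKM in Col-0 at predawn (log2 fold change 1.02, limma adjusted p = 0.00208). BZIP1 was 2.64-fold higher in tic-2 at predawn (limma adjusted p = 0.00223). In sucrose synthesis and UDP-glucose supply 11 of 12 genes were tested. At predawn 2 of the 11 fell, where 14.6% of all genes did, and 0 rose. At postdusk 3 rose, where 9.71% of all genes did, and 0 fell. UGP2, the second UDP-glucose pyrophosphorylase gene, was at 40.3 ± 7.98 FPKM in tic-2 and 16.6 ± 0.531 FPKM in Col-0 at postdusk, but at 16.8 ± 0.889 FPKM in tic-2 and 36.8 ± 3.02 FPKM in Col-0 at predawn. SPSC, a sucrose-phosphate synthase gene, was 2.18-fold higher in tic-2 at postdusk, at 120 ± 11.5 FPKM against 55.0 ± 9.58 FPKM in Col-0 (limma adjusted p = 0.00382).

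The library labels were checked once with clock and tissue genes. CCA1, a clock gene of the morning, was between 0.712 and 0.769 FPKM in Col-0 at postdusk and between 239 and 281 FPKM in Col-0 at predawn. In tic-2 it was between 52.2 and 69.6 FPKM at postdusk and between 157 and 198 FPKM at predawn. With the groups of the description fields, Col-0 at postdusk would hold those 157 to 198 FPKM of this morning gene instead. The level of TIC itself did not check the genotype, at 77.5 ± 18.3 FPKM in tic-2 and 54.9 ± 2.46 FPKM in Col-0 at predawn. Markers of leaf (RBCS1A, at least 5822 FPKM) and root (PYK10, at least 734 FPKM) were present in every library. The root nitrate transporter gene NRT2.1 was at most 0.637 FPKM, and the seed storage gene CRA1 was at 52.4 to 155 FPKM. At predawn RBCS1A averaged 6506 ± 697 FPKM in tic-2 and 9398 ± 637 FPKM in Col-0, and LHCB1.3, a light-harvesting gene, averaged 18743 ± 2565 FPKM in tic-2 and 12714 ± 651 FPKM in Col-0. These differences were called, that of RBCS1A under 17 of 22 alternatives and that of LHCB1.3 under 11. At postdusk LHCB1.3 averaged 5317 ± 647 FPKM in tic-2 and 2687 ± 683 FPKM in Col-0 (log2 fold change 1.01, limma adjusted p = 0.00284). PYK10 and CRA1 were called at neither time. The part of these genes in the TPS differences was not tested, and in whole seedlings fewer cells of a type and less RNA per cell cannot be told apart.

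**Figure D5:**
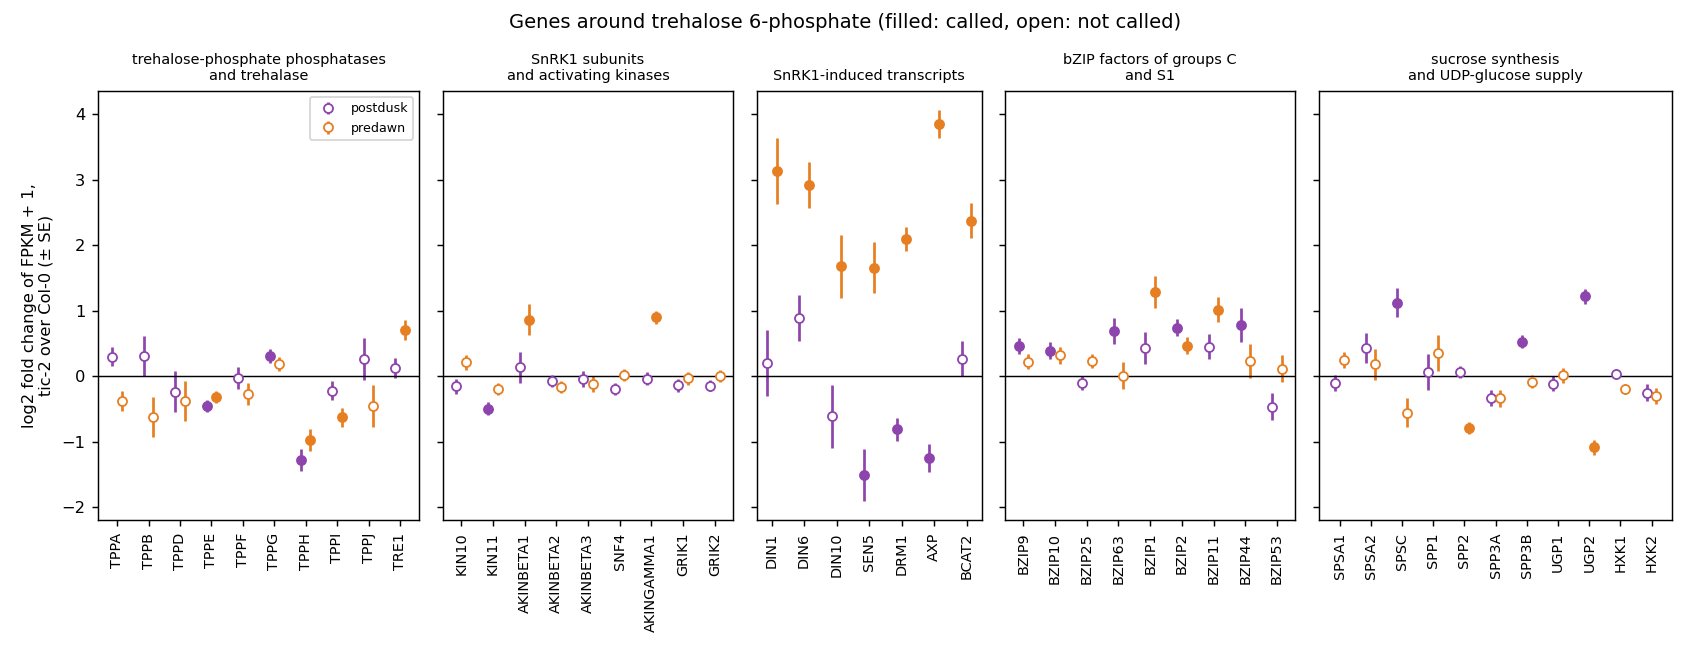
Log2 fold change (FPKM + 1, tic-2 over Col-0, ± SE of the limma fit) of the tested genes of 5 lists around trehalose 6-phosphate, at postdusk (purple) and predawn (orange), filled where called. All 7 SnRK1-induced transcripts were called higher at predawn, and TPPH was called lower at both times.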

How the data were processed

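RNA of whole seedlings was sequenced after a directional library preparation, per the labels' protocols. The authors deposited 1 table of FPKM values for 12 libraries. The submitters' processing notes name TopHat, TopHat2 and edgeR and the TAIR10 build, without versions or roles. Which counter, filters and strand setting were used is not given in the sources used here. Columns were put in groups by the genotype and ZT in their names, because the description field of 6 samples carries a column name of another group. The 3 samples titled tic-2 at predawn carry the names of Col-0 at ZT 12, and the 3 titled Col-0 at postdusk carry those of tic-2 at ZT 0. Both genotype comparisons rest on the column names, for which the levels of CCA1 are given above. Letters A to C name libraries only. With exon lengths from the TAIR10.1 annotation (RefSeq), 99.5% to 99.6% of values per library were whole reads within 0.05 reads, which gave the totals; these reads were not tested.

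Values were tested as log2(FPKM + 1) in limma 3.58.1 (R 4.3.3), with a mean-variance trend, for the 19274 genes with at least 1 FPKM in at least 3 libraries. All 12 libraries entered 1 fit of 4 group means (8 residual degrees of freedom), and p-values were adjusted by Benjamini-Hochberg over the genes tested. Such fold changes understate the change of low genes; a fold is a ratio of group mean FPKM. The fit was tested on simulated data. Alternatives were other pseudocounts (0.1 and 5) and filters, rescaling, array weights, a replicate block, 2-group fits and left-out libraries. Members and lists were chosen with earlier results of these data known. Named list genes were up to 3 called per list and genotype contrast by smallest adjusted p, and the 2 genes nearest each member in Pearson r; BZIP10, BZIP44, DIN1, DIN6, DIN10, KIN10 and TPPA were added after their values were seen. The promoter window of 1 member is not reported here.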

Additional observations from a re-analysis of the deposited data

Results flagged for a closer look

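No TPS member had a called difference between its genotype effects at postdusk and predawn. In the lists of trehalose, SnRK1, bZIP and sucrose genes, 13 of 46 genes tested did, by limma's interaction term (postdusk effect minus predawn effect, log2), where 15.9% of all genes did. Of the 13, 7 were the SnRK1-induced transcripts, a list drawn up with earlier results of these data known. Of the 21 genes named for their smallest adjusted p in the genotype comparisons of the same libraries, 9 did. The interaction is the difference of those comparisons, so this count cannot be set against the share of all genes. UGP2 (2.30), SPSC (1.68), SPP2 (0.85) and SPP3B (0.61), which act in UDP-glucose supply and sucrose synthesis, had more positive effects at postdusk. The SnRK1-induced transcripts AXP (-5.09), SEN5 (-3.16), DRM1 (-2.91) and BCAT2 (-2.11) and the SnRK1 subunit gene AKINGAMMA1 (-0.94) had more negative effects at postdusk. The other called interactions were those of TPPA (0.68), DIN1 (-2.94), DIN10 (-2.29) and DIN6 (-2.03). SPP2 averaged 40.4 ± 1.49 FPKM in tic-2 and 38.5 ± 0.495 FPKM in Col-0 at postdusk, against 23.8 ± 2.90 FPKM in tic-2 and 41.6 ± 2.49 FPKM in Col-0 at predawn.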

How the results depend on the processing

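Of 872 values of a single member under an alternative, 802 kept their direction and their side of the threshold. With the sign kept, 18 lost a call and 25 gained one, and 27 changed sign. Among those 27, the TPS9 interaction without both postdusk libraries lettered C also gained a call (limma adjusted p = 0.0246). For no change named here was the cause tested. With array weights, limma called 7 members at predawn, 4 at postdusk and 3 for the interaction. Of the 19274 genes tested, it called 9532, 10443 and 7954 in the same contrasts and 12164 for time in tic-2. The fit reported called 5334, 5686, 3060 and 7304. So array weights raised the calls of genes in general and not of the members alone. Median-of-ratios rescaling gave 3 members at postdusk, and the share of interaction calls with a more positive effect at postdusk was 60.4%, where the deposited scale gave 45.9%. Without both tic-2 libraries lettered C the interaction was called for 2 members. Without both postdusk libraries lettered C, an alternative chosen after seeing the data, it was called for 3, and 3635 genes were called at postdusk. Leaving out 1 library at a time gave 2 to 4 members at predawn, 1 to 2 at postdusk, 0 to 1 for the interaction, 4 to 5 for time in Col-0 and 5 to 6 for time in tic-2. The signs that turned belonged to values that limma did not call in the fit reported. TPS5 at predawn was 0.0383 (log2) with array weights. TPS8 at postdusk was -0.0773 without both tic-2 libraries lettered C and -0.30 without both postdusk ones, which gave -0.180 for TPS11 at postdusk and 0.0619 for TPS8 over time in Col-0. The interaction was 0.0518 for TPS5 and 0.0322 for TPS6 after rescaling, and 0.0877 for TPS5 and -0.53 for TPS9 without both postdusk libraries lettered C. With array weights it was 0.00652 for TPS6, -0.12 for TPS7 and -0.12 for TPS9. It was -0.10 for TPS7 and -0.25 for TPS9 without both tic-2 libraries lettered C, and -0.0409 for TPS9 with a pseudocount of 5. With 1 library left out, TPS8 at postdusk ran from -0.0773 to 0.52, TPS8 over time in Col-0 from -0.39 to 0.0619, TPS7 over time in tic-2 from -0.20 to 0.0150, and the interaction from -0.15 to 0.0820 for TPS5, -0.14 to 0.00743 for TPS6, -0.0560 to 0.16 for TPS7 and -0.27 to 0.20 for TPS9. Over the alternatives, the adjusted p at predawn ran from 0.000538 to 0.0897 for TPS8, 0.0141 to 0.0983 for TPS6, 0.00120 to 0.240 for TPS9, 0.00839 to 0.225 for TPS1 and 0.00178 to 0.680 for TPS7. At postdusk it ran from 0.0128 to 0.352 for TPS6, 0.0185 to 0.346 for TPS7 and 0.0353 to 0.999 for TPS9. For the interaction it ran from 0.00361 to 0.545 for TPS8, 0.0246 to 0.998 for TPS9, 0.00340 to 0.175 for TPS10 and 0.00397 to 0.505 for TPS11, and for time from 4.8e-05 to 0.139 for TPS8 in tic-2 and 0.0262 to 0.519 for TPS11 in Col-0.

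The letters in the column names share only a letter between groups. Deviations of libraries with the same letter correlated at -0.153 to -0.0964 (genotype at predawn), -0.0931 to 0.0789 (genotype at postdusk), -0.0417 to 0.0839 (time in tic-2) and -0.327 to 0.00417 (time in Col-0), and in 0 of these comparisons did all 3 libraries correlate best with their own letter. The letter as a replicate block gave 4 members at predawn, 1 at postdusk, 0 for the interaction, 5 for time in tic-2 and 4 for time in Col-0, and 5093, 5324, 2789, 7048 and 6839 genes in all. It ended the call of TPS8 over time in tic-2 (adjusted p = 0.0542) and changed no other member's call. A fit of the 2 groups alone cannot give the interaction. Each member had at least 406 reads in every library, and the number of libraries, 3 a group, limits the precision.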
